A study of Mus musculus with 8 samples.

Results

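The genes of fatty acid oxidation and of the carnitine shuttle, 32 in all, were examined among the 53247 genes of an RNA-Seq table of tumor-associated macrophages (TAMs). They were selected by gene symbol, and the rule itself set no threshold on a measured value. The list held 4 acyl-CoA synthetases, 4 genes of the carnitine shuttle, 9 of the mitochondrial spiral, 3 auxiliary enzymes, 3 of electron transfer, 2 thioesterases, 3 peroxisomal enzymes and 4 transcriptional regulators. All 32 were in the table, and 31 passed the filter on low values (averaging 1 or more per 1e+06 of the column totals), as did 13850 genes in total. Ppara was the member under the filter.

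The samples were TAMs of tumors that Lewis lung carcinoma (LLC) cells, a mouse line, had formed under the skin by day 14, and the sort gate was CD45+, CD11b+, MHC II+ and F4/80+. The hosts were WT or miR-21 null mice (here miR-21-/-), labelled C57/BL6 and 10 weeks old, with 4 samples of each genotype. The miR-21-/- hosts carried the whole-body Mir21a tm1Yoli allele, so every host cell lacked miR-21, whereas the implanted LLC cells did not carry that deletion. The first miR-21-/- replicate bears a double number in its title, and whether it is a pool is not stated. It was counted as 1 sample. The labels call the samples biological replicates and do not tie each one to a mouse, so p-values measure the spread between these samples.

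Long-chain fatty acids are first joined to coenzyme A by acyl-CoA synthetases. The acyl group is then carried through the mitochondrial membranes as a carnitine ester, and each turn of the β-oxidation spiral removes acetyl-CoA by dehydrogenation, hydration, a further dehydrogenation and thiolysis. Peroxisomes run a parallel route that starts with acyl-CoA oxidases and shortens very long and branched chains. In macrophages, fatty acid oxidation is known for its link to alternative, IL-4-driven activation, and the PPAR family of nuclear receptors drives transcription of many of these genes.

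Values are CPM, counts per 1e+06 reads, as the authors deposited them. The values of a gene are given in the order of replicates 1 to 4, means are ± SD with n = 4 per genotype, and the position of a gene is from GENCODE vM21 (GRCm38). Fold changes are miR-21-/- over WT of log2(CPM + 1), and low genes therefore appear to change by less than they did. A gene is said to have risen or fallen where limma gave it an adjusted p (Benjamini-Hochberg) of 0.05 or less over all 13850 tested genes. A stricter rule, with the limits of the paper, was an adjusted p at or under 0.005 with a fold change over 1.5.

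Depth was between 20.2 and 33.4 in units of 1e+06 reads, and 1 read was worth 0.030 to 0.0495 CPM. Macrophage markers summed to 18038 to 20087 in WT against 18906 to 22067 CPM in miR-21-/- TAMs. Markers of neutrophils (769 to 1168 against 574 to 747 CPM over 6 genes, of which 0 passed the strict rule), fibroblasts (60.3 to 136 against 9.89 to 44.0 CPM over 5 genes, of which 3 fell by that rule) and B cells (10.8 to 16.8 against 3.60 to 10.0 CPM over 4 genes, of which 1 fell by it) were lower in every miR-21-/- sample than in any WT sample. So were adipocyte markers, of a cell type rich in lipid enzymes, but at 0.0801 to 0.277 against 0.0004 to 0.0665 CPM, with all 4 genes under the filter. The sums of the macrophage, T and NK cell, dendritic, endothelial and epithelial lists overlapped between genotypes, and no marker was at 0 in every sample. Single markers in these lists were apart even so. Of 11 macrophage markers, Adgre1 (542 to 583 against 399 to 466 CPM) and Csf1r (1108 to 1474 against 866 to 1044 CPM) were lower in every miR-21-/- sample, and Fcgr1 was higher in every one and rose by the strict rule (log2 fold change 0.75, adjusted p = 0.000561). Of 7 T and NK cell markers, Cd4 fell by that rule (log2 fold change -2.35, adjusted p = 0.00206) and Cd8a was higher in every miR-21-/- sample, as was Clec9a of 6 dendritic cell markers (2.30 to 2.74 against 4.18 to 14.0 CPM). Of the other dendritic cell markers, whose groups overlapped, Flt3 (1.28 to 2.52 against 0.496 to 1.60 CPM) and Zbtb46 (0.916 to 2.03 against 0.614 to 1.05 CPM) had lower values in miR-21-/- TAMs and Xcr1 (1.73 to 7.05 against 3.32 to 20.7 CPM) higher ones. Krt8, of 4 epithelial markers, was lower in every one. The part of these other cells in the results below was not tested, and in sorted bulk samples fewer cells of a type cannot be told apart from less RNA per cell. Mir21a was listed at 0.0001 CPM, the value of no counted read, in all 8 samples, WT included, and therefore did not check the genotype labels.

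More of the oxidation genes were lower than higher in miR-21-/- TAMs, most by a small amount. Of the 31 tested genes, 15 fell, 3 rose and 13 passed in neither direction. The genes that fell were 48.4% of those tested, beside 26.5% of all tested genes, and the genes that rose were 9.68%, beside 9.49%. The strict rule called 4 genes, Acot1, Acsl3, Acot2 and Etfb. All 4 were lower, and they were 12.9% of the list beside 7.12% of all tested genes in either direction (4.23% lower and 2.89% higher).

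The 31 genes had a median log2 fold change of -0.22, where all 13850 genes had -0.10. In sign, 25 of the 31 were below 0, and 66.8% of all tested genes were too. The samples of the genotypes did not overlap for 16 genes that were lower (51.6%, beside 25.7% of all genes) and for 2 that were higher (beside 9.44%). Scaling by median of ratios in place of the deposited totals moved the median of all genes by 0.0998 to -0.0030. Under it 11 members fell and 5 rose, beside 14.7% and 15.6% of all genes, and the median of the members was -0.11. Quantile normalization gave 12 that fell and 4 that rose, beside 16.3% and 13.7%. The share of lower genes among all called genes was 73.6% as deposited, 48.6% after median of ratios and 54.3% after quantile normalization. Counts by role are given below under these rescalings too, a check added after the data had been seen.

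**Figure D1:**
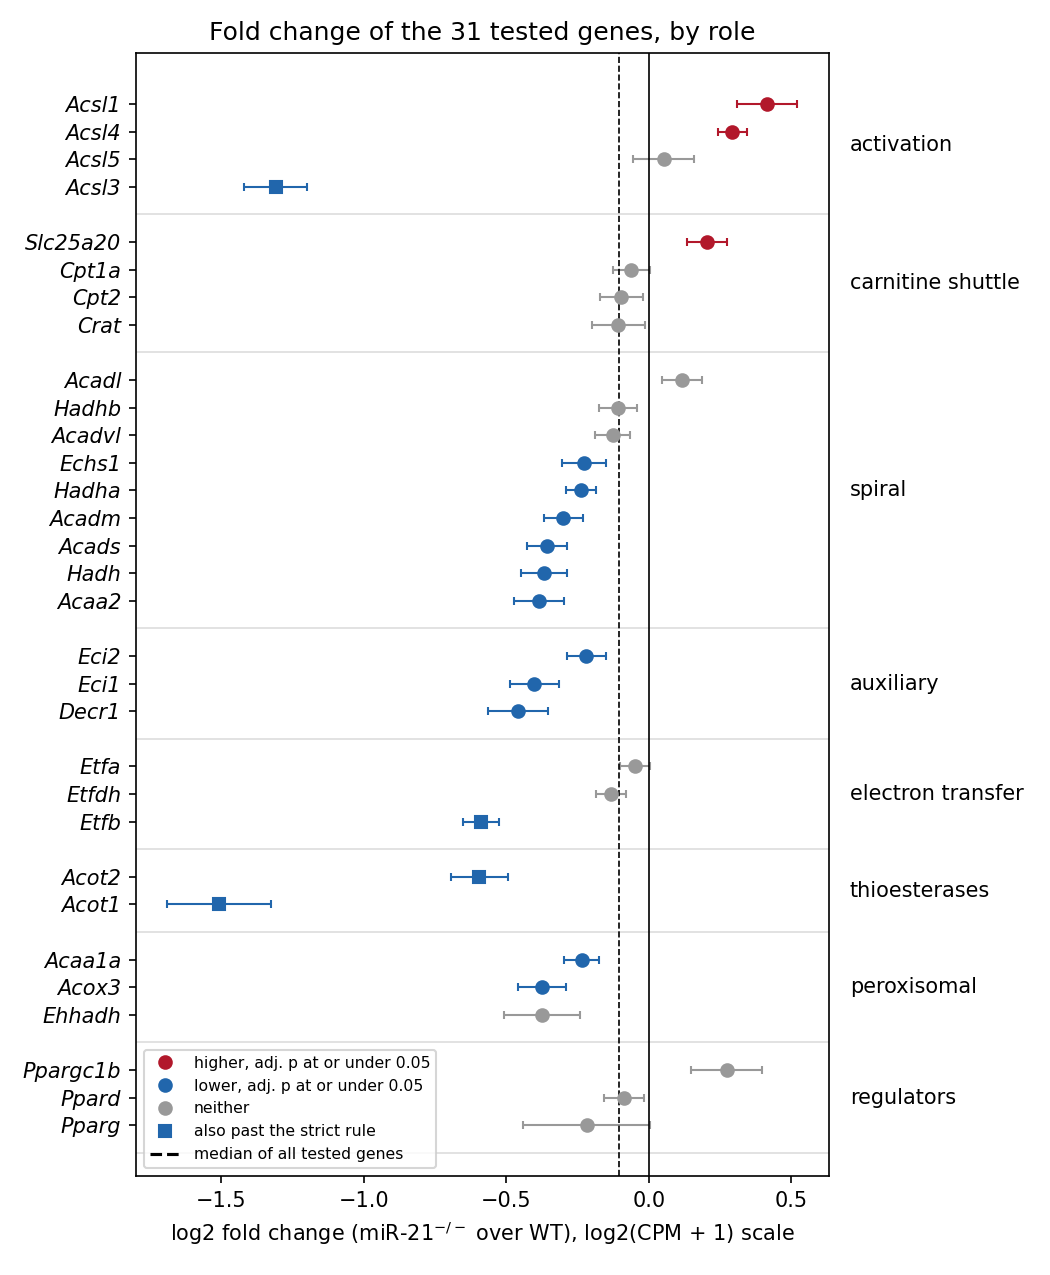
Log2 fold change (miR-21-/- over WT TAMs, log2(CPM + 1) scale) of the 31 tested genes with its standard error, grouped by role, n = 4 samples per genotype. Red and blue mark genes that rose or fell at an adjusted p at or under 0.05, squares the 4 genes past the strict rule, and the dashed line the median of all 13850 tested genes at -0.10. Most points lie left of the dashed line, and the acyl-CoA synthetases lie on both sides of 0.

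Of the 4 synthetases, Acsl3 fell (25%, beside 26.5% of all tested genes), Acsl1 and Acsl4 rose (50%, beside 9.49%) and Acsl5 did not pass, with the same counts after quantile normalization (beside 16.3% lower and 13.7% higher) and median of ratios (beside 14.7% and 15.6%). Acsl3 encodes an acyl-CoA synthetase of the endoplasmic reticulum and lipid droplets (chr1:78657825-78707743, plus strand). Its level was 12.7, 12.9, 13.3 and 10.7 CPM in WT TAMs and 4.37, 4.86, 4.96 and 3.51 CPM in miR-21-/- TAMs. Every miR-21-/- value was below every WT value, and the mean in miR-21-/- TAMs was 35.6% of that in WT TAMs (log2 fold change -1.31 ± 0.11 SE, adjusted p = 3.6e-05). Among all 13850 tested genes, 108 had a fold change as low or lower, Acsl3 included.

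Acsl1, the synthetase that feeds much of mitochondrial oxidation in fat and muscle and that inflammatory signals raise in macrophages, lies at chr8:46471037-46536051. It measured 25.8, 29.0, 33.5 and 24.1 CPM in WT TAMs and 38.9, 42.4, 33.2 and 36.2 CPM in miR-21-/- TAMs. The groups met at a single pair of samples, WT replicate 3 and miR-21-/- replicate 3, and Acsl1 rose (log2 fold change 0.42 ± 0.11 SE, adjusted p = 0.0133). Acsl4, which prefers arachidonic acid, measured 89.1, 83.1, 82.8 and 78.6 CPM in WT TAMs and 101, 103, 105 and 100.2 CPM in miR-21-/- TAMs. These groups did not overlap, and Acsl4 rose (log2 fold change 0.29 ± 0.051 SE, adjusted p = 0.00195). Acsl5, which is found at the mitochondrial outer membrane and endoplasmic reticulum, had the highest level per kilobase of exon of all the members, 27.4 CPM per kb in WT TAMs. Exons of all annotated transcripts of a gene were merged for this length, so the order of genes depends on the annotation. The values of Acsl5, 133 ± 18.9 in WT against 138 ± 16.0 CPM in miR-21-/- TAMs (SD, n = 4), were within the spread of the samples (adjusted p = 0.729). Its exons share 404 bases, 8.31% of their length, with Zdhhc6 on the opposite strand, which fell (log2 fold change -0.28, adjusted p = 0.0462).

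Within each sample, Acsl3 was 0.137 to 0.161 times the CPM of Acsl4 in WT TAMs and 0.0350 to 0.0474 times in miR-21-/- TAMs. Such a ratio does not depend on a factor applied to a whole sample. Exons of Acsl3 share 244 bases, 5.60% of their length, with Utp14b on the same strand, and Utp14b was lower too (10.3 ± 2.06 in WT against 5.09 ± 0.843 CPM in miR-21-/- TAMs, adjusted p = 0.00171). Reads in those bases cannot be assigned to 1 of the genes from the table.

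**Figure D2:**
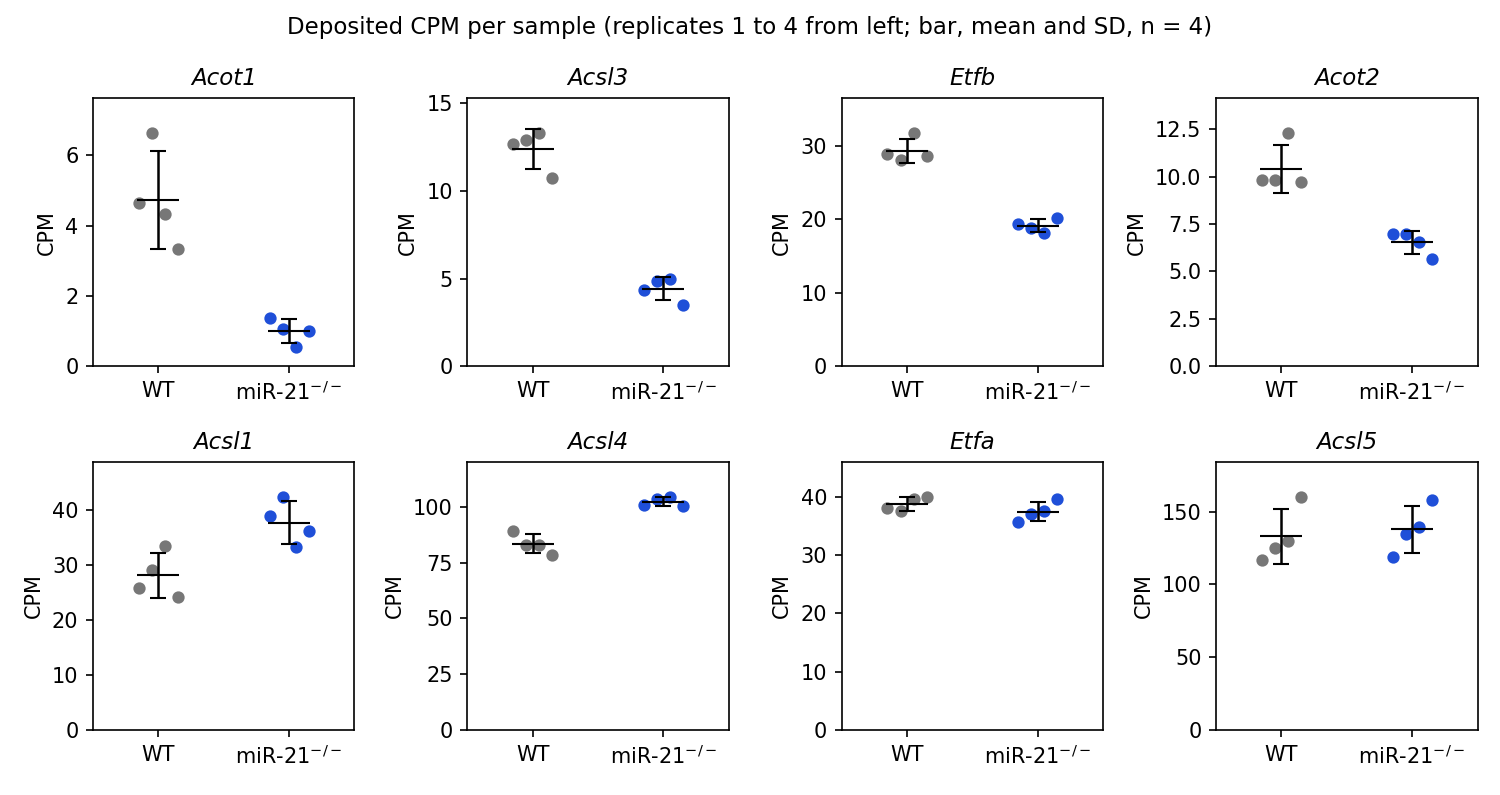
CPM in each of the 8 samples for the 4 genes past the strict rule (top row), for Acsl1 and Acsl4, which rose, and for Etfa and Acsl5, which passed in neither direction. Points are samples, bars the mean and SD (n = 4), and each axis starts at 0. In the top row all miR-21-/- points lie below all WT points.

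The 2 thioesterases, which split acyl-CoA back into free fatty acid and coenzyme A, both fell, beside 26.5% of all tested genes. Both also fell after quantile normalization (beside 16.3%) and after median of ratios (beside 14.7%). Acot1, the cytosolic enzyme, is known as a gene that PPARα ligands raise in liver (chr12:84009490-84018371, plus strand). It was the member with the lowest fold change, except with a pseudocount of 10, where Acsl3 (-0.64) and Etfb (-0.43) were lower. Its level was 4.64, 6.63, 4.33 and 3.32 CPM in WT TAMs and 1.36, 1.05, 0.549 and 1.02 CPM in miR-21-/- TAMs, which corresponds to 139, 191, 87 and 83 reads in WT and 36, 35, 14 and 31 reads in miR-21-/- TAMs. The highest miR-21-/- sample was below the lowest WT sample, and the mean was 21.0% of WT (log2 fold change -1.51 ± 0.18 SE, adjusted p = 0.000298). At this low level the log2 fold change depends on the pseudocount, at -2.16 with 0.1 and -0.42 with 10. With 10, Acot1 did not pass the strict rule, which it passed in the other 14 of 15 alternatives in which it was tested. The coefficient of variation of Acot1 in miR-21-/- TAMs, 33.6%, was the highest of the tested members in that genotype, where their median was 5.92%.

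Acot2, the mitochondrial enzyme, lies 15616 bases upstream on the same strand at chr12:83987861-83993873. Its values were 9.85, 9.80, 12.3 and 9.70 CPM in WT TAMs and 6.96, 6.98, 6.55 and 5.67 CPM in miR-21-/- TAMs. WT replicate 3 stood above the other WT samples, the groups did not overlap without it either, and Acot2 fell (log2 fold change -0.60 ± 0.10 SE, adjusted p = 0.00163). Acot2 kept an adjusted p at or under 0.05 in all 16 alternatives but passed the strict rule in only 9 of them. It did not pass that rule with a pseudocount of 10, with no filter, under either rescaling, or without WT replicate 3 or miR-21-/- replicate 3 or 4.

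The coding sequences of Acot1 and Acot2, 1257 and 1359 bases, were 85.6% identical. Their longest identical stretch, 273 bases of the last exon, is printed because a read that lies within it could come from either gene. It is chr12:84017006-84017278 in Acot1 and chr12:83992728-83993000 in Acot2 (GRCm38, plus strand, from GENCODE transcripts).
Acot1 and Acot2: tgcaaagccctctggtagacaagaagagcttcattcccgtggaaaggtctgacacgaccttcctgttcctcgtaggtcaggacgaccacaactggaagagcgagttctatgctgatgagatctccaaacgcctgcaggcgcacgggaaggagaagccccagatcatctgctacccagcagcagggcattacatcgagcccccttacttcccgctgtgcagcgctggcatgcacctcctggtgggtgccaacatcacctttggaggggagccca
How reads of this stretch were assigned is not given in the sources used here, so the split between the pair is uncertain. Their sum does not depend on that split and was 15.1 ± 1.71 in WT against 7.54 ± 0.771 CPM in miR-21-/- TAMs, 49.8% of WT.

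Of the 4 genes of the carnitine shuttle, none fell (beside 26.5% of all tested genes) and 1 rose (25%, beside 9.49%). The counts were the same after quantile normalization (beside 16.3% lower and 13.7% higher) and median of ratios (beside 14.7% and 15.6%). The median of the 4 genes was -0.078, close to the -0.10 of all genes, and turned to 0.0032 after quantile normalization and 0.030 after median of ratios. Cpt1a, the outer-membrane carnitine palmitoyltransferase that sets the rate of entry and is inhibited by malonyl-CoA, measured 103, 117, 116 and 126 CPM in WT TAMs and 112, 106, 107 and 116 CPM in miR-21-/- TAMs. The groups overlapped widely (log2 fold change -0.061 ± 0.065 SE, adjusted p = 0.495). Cpt2, which returns the acyl group to coenzyme A on the inner face, measured 13.8 ± 0.956 in WT against 12.8 ± 0.847 CPM in miR-21-/- TAMs (adjusted p = 0.352).

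Slc25a20, the carnitine-acylcarnitine translocase of the inner membrane, was the shuttle gene that rose. It measured 23.5, 21.1, 23.7 and 24.2 CPM in WT TAMs and 28.7, 27.9, 25.6 and 25.0 CPM in miR-21-/- TAMs. The lowest miR-21-/- sample was just above the highest WT sample, and the call was near its limit (log2 fold change 0.20 ± 0.069 SE, adjusted p = 0.0421), with an adjusted p between 0.0104 and 0.117 over the 16 alternatives, of which 9 ended the call. Crat, carnitine acetyltransferase, which buffers short acyl groups, measured 45.6, 46.8, 45.9 and 37.1 CPM in WT TAMs and 39.0, 47.3, 39.0 and 37.5 CPM in miR-21-/- TAMs. A single sample of each genotype stood apart, WT replicate 4 among the low values and miR-21-/- replicate 2 among the high ones (log2 fold change -0.11, adjusted p = 0.401). The log2 fold change of Crat was -0.18 without miR-21-/- replicate 2 and -0.070 without miR-21-/- replicate 4. Over all alternatives it lay between -0.18 and 0.0037, with an adjusted p of 0.105 or more.

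In the mitochondrial spiral, 6 of the 9 genes fell (66.7%, beside 26.5% of all tested genes), none rose and 3 passed in neither direction. The median of the 9 was -0.24. After quantile normalization 5 fell (beside 16.3%), and after median of ratios 4 fell (beside 14.7%) and 1 rose (beside 15.6%), with medians of -0.21 and -0.13. The first step is shared by acyl-CoA dehydrogenases of different chain length, of which the medium-chain and short-chain enzymes fell. Acadm, the medium-chain enzyme, measured 35.8, 35.8, 39.7 and 32.8 CPM in WT TAMs and 29.4, 30.2, 26.9 and 29.6 CPM in miR-21-/- TAMs and fell (log2 fold change -0.30 ± 0.068 SE, adjusted p = 0.00749). Acads, the short-chain enzyme, measured 20.6, 21.4, 23.1 and 22.7 CPM in WT TAMs and 15.4, 17.3, 17.2 and 17.8 CPM in miR-21-/- TAMs and fell as well (log2 fold change -0.36 ± 0.069 SE, adjusted p = 0.00329). For both, the groups did not overlap.

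Acadvl, the very-long-chain enzyme bound to the inner membrane, measured 34.7 ± 2.14 in WT against 31.6 ± 1.25 CPM in miR-21-/- TAMs (log2 fold change -0.13, adjusted p = 0.129). Its exons overlap those of Dvl2 on the opposite strand over 42.9% of their length, and Dvl2 fell (log2 fold change -0.36, adjusted p = 0.00114). Without a stated use of strand, their reads in those bases cannot be told apart. Acadl, the long-chain enzyme, was the spiral gene with the highest fold change. It measured 47.5, 44.9, 49.4 and 51.9 CPM in WT TAMs and 46.6, 56.2, 54.6 and 53.2 CPM in miR-21-/- TAMs. Its groups overlapped and it passed in neither direction (log2 fold change 0.12 ± 0.071 SE, adjusted p = 0.223), but after median of ratios it was called higher (adjusted p = 0.0309). The ratio of Acadl to Acadm within a sample was 1.24 to 1.58 in WT and 1.58 to 2.02 in miR-21-/- TAMs. That of Acadl to Acadvl overlapped between genotypes, at 1.33 to 1.47 in WT and 1.44 to 1.83 in miR-21-/- TAMs.

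The trifunctional protein, which carries out the later steps for long chains, is built from α subunits encoded by Hadha and β subunits encoded by Hadhb. The genes lie head to head on chromosome 5 with 85 bases between them. Hadha measured 111, 112, 123 and 114 CPM in WT TAMs and 92.5, 101, 98.5 and 97.2 CPM in miR-21-/- TAMs and fell (log2 fold change -0.24 ± 0.052 SE, adjusted p = 0.00614), while Hadhb measured 22.2 ± 1.11 in WT against 20.6 ± 1.22 CPM in miR-21-/- TAMs and passed in neither direction (log2 fold change -0.11 ± 0.066 SE, adjusted p = 0.223). After median of ratios Hadha no longer passed (adjusted p = 0.0627). Hadhb was 0.185 to 0.201 times Hadha in WT and 0.206 to 0.222 times in miR-21-/- TAMs. The groups of this ratio, which a factor applied to a whole sample leaves as it is, did not overlap, although the difference was small.

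The soluble enzymes of the same steps fell. Echs1, the short-chain enoyl-CoA hydratase, measured 31.4, 36.3, 38.3 and 32.0 CPM in WT TAMs and 28.7, 30.8, 27.3 and 30.2 CPM in miR-21-/- TAMs (log2 fold change -0.23 ± 0.076 SE, adjusted p = 0.0402). Echs1 was the least stable call, lost in 11 of 16 alternatives, among them the leaving out of any miR-21-/- sample or of WT replicate 2 or 3 (adjusted p up to 0.206 over all alternatives). Its exons share 142 bases with Paox on the opposite strand, and Paox was lower (38.3 ± 6.37 in WT against 16.9 ± 1.96 CPM in miR-21-/- TAMs, adjusted p = 0.000151). Hadh, the hydroxyacyl-CoA dehydrogenase, measured 19.1, 21.3, 24.5 and 22.0 CPM in WT TAMs and 16.2, 17.6, 16.9 and 15.6 CPM in miR-21-/- TAMs (log2 fold change -0.37 ± 0.080 SE, adjusted p = 0.00607). Acaa2, the mitochondrial thiolase, had the lowest fold change of the spiral with 19.6, 21.7, 26.1 and 24.7 CPM in WT TAMs and 16.5, 16.8, 18.1 and 17.8 CPM in miR-21-/- TAMs (log2 fold change -0.39 ± 0.089 SE, adjusted p = 0.00809). For Hadh and Acaa2 the groups did not overlap.

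All 3 auxiliary enzymes, which deal with double bonds of unsaturated fatty acids, fell (beside 26.5% of all tested genes), with a median of -0.40. Under either rescaling 2 of the 3 fell, with Eci2 the exception (beside 16.3% after quantile normalization and 14.7% after median of ratios). Decr1, the 2,4-dienoyl-CoA reductase, measured 12.5, 13.8, 12.8 and 13.5 CPM in WT TAMs and 7.28, 10.3, 9.71 and 10.3 CPM in miR-21-/- TAMs (log2 fold change -0.46 ± 0.11 SE, adjusted p = 0.00788). The first miR-21-/- sample was the lowest, and the remaining 3 were still below all WT samples. Eci1, an enoyl-CoA isomerase, measured 9.13, 9.04, 10.1 and 8.80 CPM in WT TAMs and 5.93, 6.69, 7.18 and 7.38 CPM in miR-21-/- TAMs (log2 fold change -0.40 ± 0.087 SE, adjusted p = 0.00606). Eci2, a second isomerase, measured 21.1, 23.4, 22.3 and 25.4 CPM in WT TAMs and 19.1, 19.2, 19.9 and 20.1 CPM in miR-21-/- TAMs (log2 fold change -0.22 ± 0.067 SE, adjusted p = 0.0294). Eci2 lost its call in 7 of 16 alternatives, including both rescalings and the leaving out of any of miR-21-/- replicates 1, 2 and 3 or of WT replicates 2 and 4 (adjusted p 0.0190 to 0.236).

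Electrons from the acyl-CoA dehydrogenases pass through a heterodimer of ETFα and ETFβ to ETF-ubiquinone oxidoreductase in the inner membrane. Of these 3 genes of electron transfer, 1 fell (33.3%, beside 26.5% of all tested genes) and none rose, with a median of -0.13. After quantile normalization 1 fell (beside 16.3%), with a median of -0.048, and after median of ratios 1 fell (beside 14.7%), with a median of -0.024. Of the genes of the heterodimer, Etfb fell and Etfa did not pass. Etfb (chr7:43444083-43457800, plus strand) measured 28.9, 28.1, 31.8 and 28.6 CPM in WT TAMs and 19.3, 18.9, 18.1 and 20.2 CPM in miR-21-/- TAMs. The groups were well apart, and Etfb fell with the smallest adjusted p of the mitochondrial genes (log2 fold change -0.59 ± 0.063 SE, adjusted p = 0.000149). It kept an adjusted p at or under 0.05 in all 16 alternatives and passed the strict rule in 10, the exceptions being a pseudocount of 10, both rescalings, and the fits without WT replicate 3 or miR-21-/- replicate 2 or 3. Etfa measured 38.0, 37.6, 39.6 and 40.0 CPM in WT TAMs and 35.7, 37.1, 37.5 and 39.6 CPM in miR-21-/- TAMs and overlapped (log2 fold change -0.049 ± 0.053 SE, adjusted p = 0.499). Its sign turned under both rescalings, to 0.029 and 0.060. The log2 fold change of Etfa was -0.027 without miR-21-/- replicate 1 and -0.076 without miR-21-/- replicate 4. Etfdh, the oxidoreductase, measured 28.2 ± 0.725 in WT against 25.7 ± 0.903 CPM in miR-21-/- TAMs. Its groups did not overlap, but it did not pass (log2 fold change -0.13 ± 0.054 SE, adjusted p = 0.0783).

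Per kilobase of exon, with exons merged as above, Etfb and Etfa had similar levels in WT TAMs, 25.2 and 21.1 CPM per kb. In miR-21-/- TAMs they were 16.4 and 20.4 CPM per kb. The ratio of their CPM was 0.759, 0.748, 0.802 and 0.714 in WT samples and 0.542, 0.509, 0.483 and 0.511 in miR-21-/- samples. All WT ratios lay above all miR-21-/- ratios (means 0.756 ± 0.0359 and 0.511 ± 0.0240). The exons of Etfb overlap the annotated gene Gm45233 on the same strand over 53.0% of their length. Gm45233 was listed at no more than 0.00012 CPM in any sample, so almost none of the reads in the shared bases were counted for it.

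**Figure D3:**
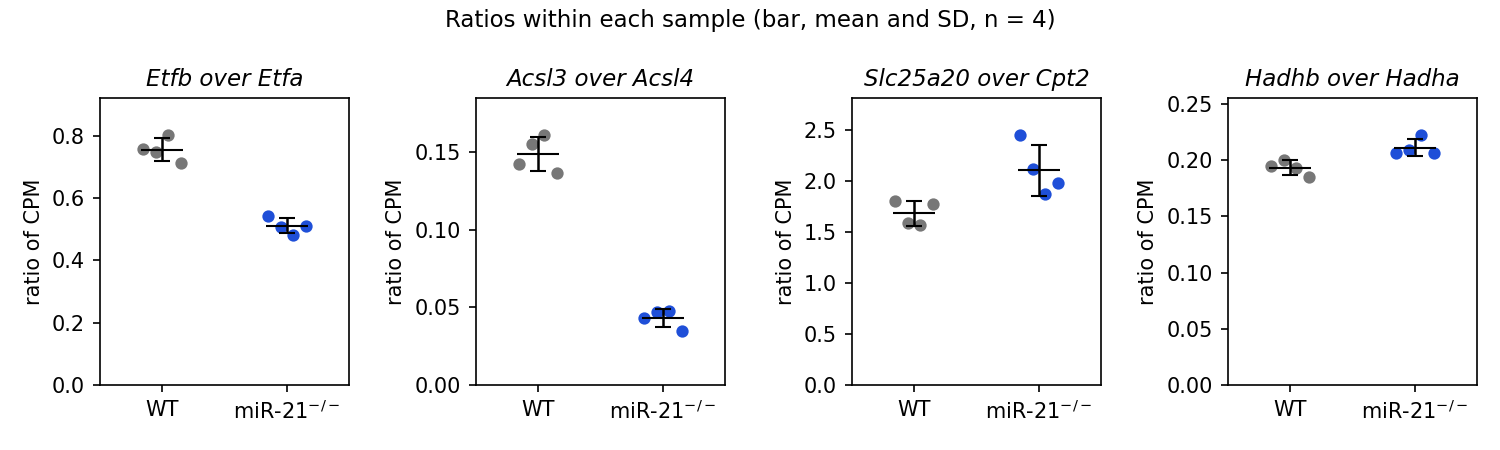
Ratio of CPM within each sample for pairs of members, with the mean and SD per genotype (n = 4) and axes from 0. Etfb over Etfa and Acsl3 over Acsl4 were lower in every miR-21-/- sample than in any WT sample, and Slc25a20 over Cpt2 and Hadhb over Hadha were higher in every one. With Cpt1a as the partner, which is not shown, the groups of Slc25a20 overlapped (0.180 to 0.227 in WT and 0.215 to 0.263 in miR-21-/- TAMs).

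The 20 mitochondrial genes, Acot2 and the shuttle included, had a median of -0.22, with 11 that fell (55%, beside 26.5% of all tested genes) and 1 that rose (5%, beside 9.49%). After quantile normalization 9 fell (beside 16.3%) and 1 rose (beside 13.7%), with a median of -0.13. After median of ratios 8 fell (beside 14.7%) and 2 rose (beside 15.6%), with a median of -0.11. The 3 peroxisomal genes had a median of -0.37, and 2 of them fell (66.7%, beside 26.5%). After quantile normalization 1 of them fell (beside 16.3%), with a median of -0.20, and after median of ratios 1 fell (beside 14.7%), with a median of -0.26. These medians are a description without a test, and the peroxisomal one rests on 3 genes. Sample by sample, the median of log2(CPM + 1) about the gene means was 0.017, 0.13, 0.19 and 0.11 for the mitochondrial genes in WT TAMs and -0.15, -0.075, -0.12 and -0.089 in miR-21-/- TAMs. For the peroxisomal genes it was 0.16, 0.21, 0.23 and -0.036 in WT and -0.16, -0.10, -0.24 and -0.22 in miR-21-/- TAMs. Both sets were lower in every miR-21-/- sample than in any WT sample, as was the median of all tested genes (0.026 to 0.078 in WT and -0.076 to -0.037 in miR-21-/- TAMs).

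Acox3, the peroxisomal oxidase of branched-chain acyl-CoA, measured 78.9, 93.7, 82.7 and 68.8 CPM in WT TAMs and 63.0, 65.8, 59.2 and 59.8 CPM in miR-21-/- TAMs and fell (log2 fold change -0.37 ± 0.085 SE, adjusted p = 0.00767). The groups did not overlap, and WT replicate 2 was the highest sample. Ehhadh, the bifunctional enzyme and a known PPARα target in liver, had low values, 2.67, 2.74, 3.61 and 1.91 CPM in WT TAMs and 1.83, 1.83, 1.92 and 1.79 CPM in miR-21-/- TAMs. In contrast to the wide spread of WT values, those of miR-21-/- samples were close together, and WT replicate 4 lay among them. It did not pass (log2 fold change -0.38 ± 0.13 SE, adjusted p = 0.0516), but it was called lower without WT replicate 4 (adjusted p = 0.0105) and in the fit without intensity trend (adjusted p = 0.0412). After quantile normalization its log2 fold change was -0.20 (adjusted p = 0.271).

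Acaa1a, the peroxisomal thiolase, measured 76.6, 79.2, 81.1 and 73.1 CPM in WT TAMs and 70.3, 67.8, 60.4 and 64.4 CPM in miR-21-/- TAMs and fell (log2 fold change -0.24 ± 0.060 SE, adjusted p = 0.0132). It did not pass after quantile normalization (adjusted p = 0.0516) or median of ratios (adjusted p = 0.137). The coding sequence of Acaa1a is 96.5% identical to that of Acaa1b, which averaged no more than 0.0644 CPM in either genotype. Exons of Acaa1a share 290 bases, 6.57% of their length, with Myd88 on the opposite strand. Myd88 measured 169 ± 8.17 in WT against 171 ± 7.56 CPM in miR-21-/- TAMs. Without a stated use of strand, reads in those bases cannot be told apart. The groups of Acaa1a did not overlap.

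**Figure D4:**
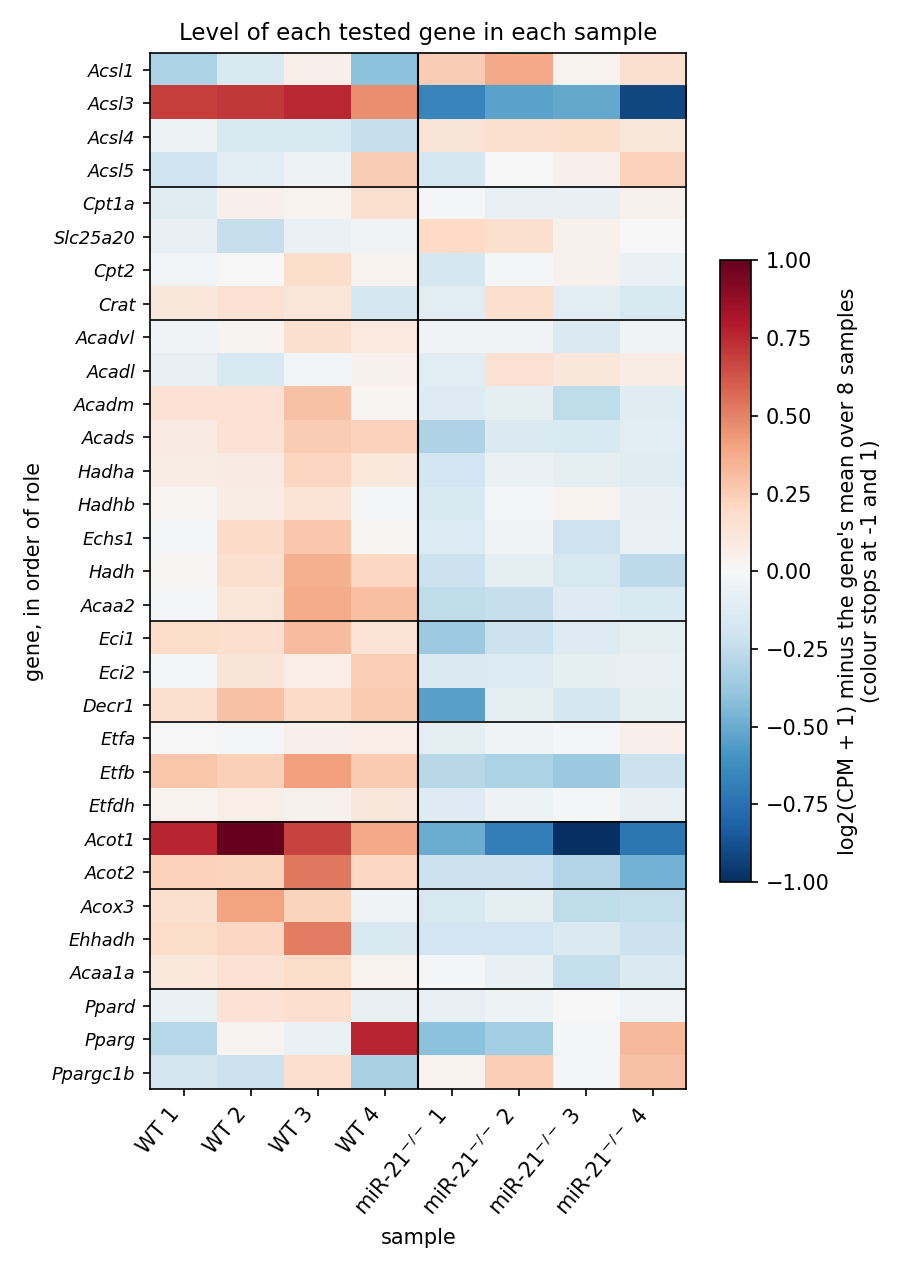
Each tested gene in each sample, as log2(CPM + 1) minus the mean of the gene over the 8 samples, with the colour scale stopped at -1 and 1. Rows follow the roles in the order of the text and the line divides WT from miR-21-/- samples. Acsl3 and Acot1 show the strongest contrast, and the rows of Pparg and Acsl5 vary as much within a genotype as between them.

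Of the 4 regulators, 3 were tested, and none fell (beside 26.5% of all tested genes) or rose (beside 9.49%). Under either rescaling none fell and 1, Ppargc1b, rose. All genes then had 16.3% lower and 13.7% higher after quantile normalization, and 14.7% and 15.6% after median of ratios. Ppara, the receptor of fasting liver, was close to absent, with 0, 1, 0 and 2 reads in WT and 0, 1, 0 and 0 reads in miR-21-/- TAMs. The few reads were spread over both genotypes. A count of 0 allows up to 3 reads, or 0.0899 to 0.148 CPM at these depths, so a difference was not detectable (exact two-sided permutation test, p = 0.429). Ppard, the ubiquitous receptor, measured 33.8, 39.2, 39.9 and 33.6 CPM in WT TAMs and 33.4, 34.1, 35.3 and 34.5 CPM in miR-21-/- TAMs. Its groups overlapped (log2 fold change -0.087, adjusted p = 0.35), and its sign turned after median of ratios (0.023). Without WT replicate 1 the log2 fold change of Ppard was -0.12, and without WT replicate 2 it was -0.054. Its adjusted p was 0.182 or more in every alternative.

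Pparg, the receptor of adipocytes and of lipid-handling macrophages, measured 31.4, 39.3, 36.9 and 66.1 CPM in WT TAMs and 28.8, 30.3, 38.2 and 48.5 CPM in miR-21-/- TAMs. Replicate 4 was the highest sample in both genotypes, and Pparg had the widest spread among the 31 tested members in WT TAMs, a coefficient of variation of 35.7% where the median was 7.91%. Its difference was smaller than that spread (log2 fold change -0.22 ± 0.22 SE, adjusted p = 0.473) and moved with single samples. Without WT replicate 4 the log2 fold change was -0.00033, and without WT replicate 1 it was -0.35. Without miR-21-/- replicates 1, 2 and 4 it was -0.12, -0.14 and -0.36. Ppargc1b, the coactivator PGC-1β, measured 3.88, 3.77, 5.20 and 3.43 CPM in WT TAMs and 4.66, 5.55, 4.45 and 5.75 CPM in miR-21-/- TAMs. It was higher in mean but did not pass (log2 fold change 0.27 ± 0.12 SE, adjusted p = 0.112), with WT replicate 3 inside the miR-21-/- range. It was called higher without that sample (adjusted p = 0.0330), after quantile normalization (0.0208) and after median of ratios (0.0398).

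As the miR-21-/- hosts lacked miR-21, the members were searched for its seed match. The mature strand is shown with bases 2 to 8, the seed, in capitals (RefSeq, GRCm38.p6, chr11:86584120-86584141, minus strand).
mmu-miR-21a-5p: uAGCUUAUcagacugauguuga
None of the 31 tested members held a match of 7 or 8 bases in its annotated 3′ UTR, where 13.0% of the 11480 tested genes with a 3′ UTR did and 2.31% held an 8-base match. These shares do not allow for the length of the 3′ UTR, which ranged from 61 bases in Etfb to 2684 in Acsl4 among these members. A 6-base match alone was in Acsl3, Acsl5 and Acadm. Of these, Acsl3 and Acadm fell and Acsl5 did not pass. The share of all tested genes with a 6-base match was not counted, so these counts cannot be read as a result about the members. The sole 8-base match of the list was in Ppara, the member with almost no reads. It is shown with the match in capitals, in exon 8 of 8, within the 3′ UTR (GRCm38, chr15:85801829-85801836, plus strand).
Ppara 3′ UTR site: agaatagtttgATAAGCTAtcccatcactc
A match is a description of letters and not a measured site.

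RefSeq promoter windows (GRCm38.p6, 250 bases before to 50 after the start) were found for 28 members, 31 windows in all. They were searched on both strands for the PPAR and RXR element AGGTCANAGGTCA, the element TCAAGGTCA of the estrogen-related receptors, and the hexamer AGGTCA, which both of them contain. The first was in 0 and the second in 0 of the member windows. Over all 32851 windows their shares were 0.0396% and 0.423%. No match says only that these letters are not in these windows. The hexamer was in 6 member windows, of Acadm, Acadvl, Cpt1a, Echs1 and Pparg, and in 16.3% of all windows.

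The windows of Acadm, which fell, and of Cpt1a, which did not pass, are shown because both hold a hexamer on the reverse strand (TGACCT, in capitals). It begins at position -249 from the start in Acadm and -94 in Cpt1a. The Acadm window is chr3:153944594-153944893, minus strand, and the Cpt1a window is chr19:3323051-3323350, plus strand.
Acadm promoter: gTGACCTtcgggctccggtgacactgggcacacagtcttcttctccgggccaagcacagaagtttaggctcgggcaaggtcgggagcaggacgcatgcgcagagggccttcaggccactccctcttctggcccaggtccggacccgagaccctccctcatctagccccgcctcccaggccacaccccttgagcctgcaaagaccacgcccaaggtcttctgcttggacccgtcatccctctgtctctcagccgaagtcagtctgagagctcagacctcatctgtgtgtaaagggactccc
Cpt1a promoter: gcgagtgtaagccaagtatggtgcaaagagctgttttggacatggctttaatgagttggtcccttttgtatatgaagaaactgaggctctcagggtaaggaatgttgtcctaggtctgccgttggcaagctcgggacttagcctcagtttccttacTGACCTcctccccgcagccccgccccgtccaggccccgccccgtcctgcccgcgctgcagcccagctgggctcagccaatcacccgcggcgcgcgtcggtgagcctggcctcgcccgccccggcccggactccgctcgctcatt

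Of 71 other genes of fatty acid handling, listed by function, 60 were tested. Of these, 23 fell (38.3%, beside 26.5% of all genes) and 6 rose (10%, beside 9.49%), and 6 passed the strict rule (10%, beside 7.12%). Their median was -0.17, where that of all genes was -0.10. Under the rescalings, a check on these lists that was added after the data had been seen, 11 fell and 11 rose after median of ratios (beside 14.7% and 15.6% of all genes), and 11 fell and 9 rose after quantile normalization (beside 16.3% and 13.7%). In the list of peroxisomal oxidation and import, 6 of 13 tested genes fell (46.2%, beside 26.5%) and none rose, with a median of -0.25. After median of ratios 4 fell (beside 14.7%) and 1 rose (beside 15.6%), and after quantile normalization 4 fell (beside 16.3%) and 1 rose (beside 13.7%). Hsd17b4, the multifunctional enzyme that carries out the hydration and second dehydrogenation of the peroxisomal route, measured 124, 149, 118 and 129 CPM in WT TAMs and 76.7, 77.8, 84.7 and 92.4 CPM in miR-21-/- TAMs (log2 fold change -0.64 ± 0.083 SE, adjusted p = 0.000424). Abcd2, a transporter of very-long-chain acyl-CoA into peroxisomes, measured 8.19, 10.8, 8.26 and 8.72 CPM in WT TAMs and 3.25, 2.94, 3.03 and 3.01 CPM in miR-21-/- TAMs (log2 fold change -1.29 ± 0.10 SE, adjusted p = 2.06e-05). For both, every miR-21-/- sample was below every WT sample.

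Among 15 other tested mitochondrial and shuttle genes, 7 fell (46.7%, beside 26.5%) and 1 rose (6.67%, beside 9.49%), with a median of -0.21. After median of ratios 3 fell (beside 14.7%) and 1 rose (beside 15.6%), and after quantile normalization 2 fell (beside 16.3%) and 1 rose (beside 13.7%). Acss1, which activates acetate in mitochondria, measured 40.7, 56.2, 51.3 and 56.8 CPM in WT TAMs and 26.0, 24.9, 31.3 and 35.5 CPM in miR-21-/- TAMs and fell past the strict rule (log2 fold change -0.78 ± 0.13 SE, adjusted p = 0.00159). Acat1, the acetoacetyl-CoA thiolase of ketone body use, was the one that rose (log2 fold change 0.45, adjusted p = 0.000628). Of 10 tested partners and regulators, 6 fell (60%, beside 26.5%) and none rose, but 1 fell after median of ratios (beside 14.7%) and 3 after quantile normalization (beside 16.3%). Rxrb, which encodes a dimer partner of the PPARs, measured 40.1, 44.5, 42.1 and 43.3 CPM in WT TAMs and 25.2, 24.7, 27.6 and 29.4 CPM in miR-21-/- TAMs (log2 fold change -0.65 ± 0.068 SE, adjusted p = 0.000128).

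The list of uptake and storage had its median on the other side of 0, at 0.15, with 4 of 13 tested genes that rose (30.8%, beside 9.49%) and 2 that fell (15.4%, beside 26.5%). After median of ratios 7 rose (beside 15.6% of all genes) and 1 fell (beside 14.7%), and after quantile normalization 5 rose (beside 13.7%) and 0 fell (beside 16.3%). Cd36, the scavenger receptor that takes up fatty acids and oxidized lipoproteins, measured 36.1, 9.0, 27.1 and 15.6 CPM in WT TAMs and 118, 149.5, 101 and 102 CPM in miR-21-/- TAMs. The WT samples spread widely, and all miR-21-/- samples were above them (log2 fold change 2.52 ± 0.34 SE, adjusted p = 0.00054). Dgat1, which makes triglyceride, measured 40.4, 29.7, 33.9 and 26.2 CPM in WT TAMs and 60.0, 46.8, 49.9 and 45.0 CPM in miR-21-/- TAMs (log2 fold change 0.62 ± 0.13 SE, adjusted p = 0.00473). The remaining genes that rose were Fabp5, a fatty acid-binding protein, and Plin2, a coat protein of lipid droplets (log2 fold changes 0.93 and 0.57). The pair that fell was Dgat2, a second enzyme of triglyceride synthesis (log2 fold change -0.46, adjusted p = 0.00767), and Pnpla2, a triglyceride lipase (log2 fold change -0.21, adjusted p = 0.04). Of the 5 tested genes around malonyl-CoA, Mlycd, which degrades it, fell (20%, beside 26.5%), and Prkaa1, a catalytic subunit of AMP-activated kinase, rose (20%, beside 9.49%, log2 fold changes -0.58 and 0.23). Of 8 listed PPAR targets outside the members, 4 were tested, and Klf4 passed, by falling (25%, beside 26.5% of all tested genes; log2 fold change -1.13, adjusted p = 0.00535). Klf4 fell under both rescalings, and Hilpda, a lipid droplet protein, was then called higher (adjusted p = 0.0376 after median of ratios and 0.0472 after quantile normalization).

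**Figure D5:**
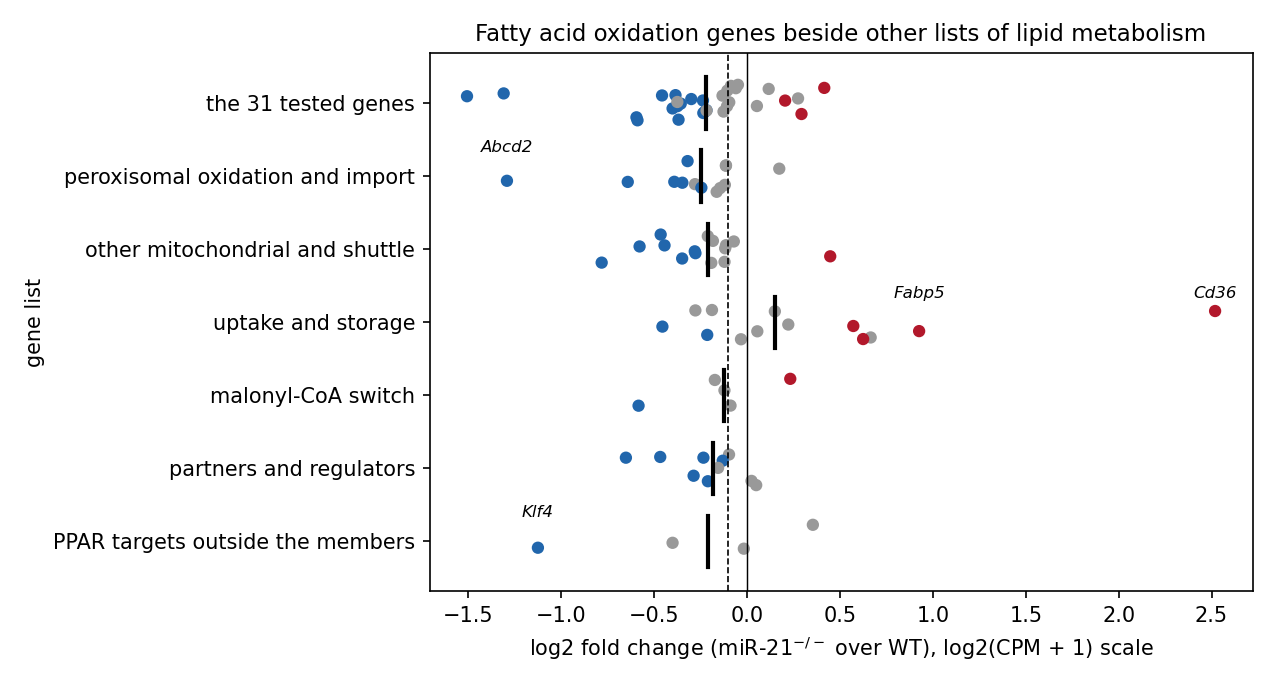
Log2 fold change (miR-21-/- over WT TAMs, log2(CPM + 1) scale) of the 31 tested members and of 60 other tested genes, by list, with red and blue for genes that rose or fell at an adjusted p at or under 0.05. Black bars are list medians and the dashed line is the median of all tested genes, -0.10. The median of uptake and storage, 0.15, lies right of 0, and the medians of the members and of every other list lie left of the dashed line. Besides both oxidation lists, these are the malonyl-CoA switch (-0.12), partners and regulators (-0.18) and PPAR targets outside the members (-0.21).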

How the data were processed

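TAMs of WT and miR-21-/- mice (4 samples each) were profiled by mRNA-Seq. The authors deposited 1 table of CPM, each value raised by 0.0001. The submitters' processing notes name STAR, mm10 and Partek 7.0. The counting rule and its use of strand are not given in the sources used here. Symbols of 93.2% of rows matched GENCODE vM21, and 97.1% of those had the same start.

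Depth was read from the steps of low values (20.2 to 33.4 in units of 1e+06 reads). Only 75.3% to 76.5% of values up to 20 reads lay within 0.05 of a whole read, so reads were not recovered and no count test was run. Read numbers in the text are rounded. All 37 genes of the mitochondrial genome were listed at 0.0001 in all samples.

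log2(CPM + 1) values of the 13850 rows averaging 1 or more per 1e+06 of column totals entered a fit by limma 3.58.1 under R 4.3.3 (lmFit, eBayes with trend, genotype only), with Benjamini-Hochberg adjustment over all of them. The script was tested on simulated data. Values in every sample are given for members past either rule, the extremes of each class and the regulators. Of the other genes, those past the strict rule are given in full. Fabp5, Plin2, Dgat2, Pnpla2, Mlycd, Prkaa1, Klf4, Hilpda, Acat1 and single cell type markers were named after their values were seen. Members and lists were chosen with earlier results of these data known. Alternatives were pseudocounts of 0.1 and 10, a filter of 5 per 1e+06 or none, quantile normalization, median of ratios, eBayes without trend, the replicate number as a block, no fold limit, and leaving out each sample. Figures used matplotlib 3.10.9.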

Additional observations from a re-analysis of the deposited data

Results flagged for a closer look

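In 3 of 50 groups of 4 samples, 1 sample lay farther from the others than Dixon's limit, and chance gives about 1 in 20. Crat in WT replicate 4 was at 37.1 CPM, while the other WT samples were at 45.6 to 46.8 CPM. Crat in miR-21-/- replicate 2 was at 47.3 CPM, where the others were at 37.5 to 39.0 CPM. Acot2 in WT replicate 3 was at 12.3 CPM, with the others at 9.70 to 9.85 CPM.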

How the results depend on the processing

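Of the 15 genes that fell, 11 kept their call in every alternative in which they were tested (Acot1 and Ehhadh were not tested with a filter of 5 per 1e+06), and Hadha, Echs1, Eci2 and Acaa1a lost it in some. Acsl1 and Acsl4 kept theirs, and Slc25a20 did not. The number past the strict rule, 4, was 1 with a pseudocount of 10, 2 after quantile normalization, 2 after median of ratios, 6 without the fold limit and 2 to 4 with 1 sample left out (2 without WT replicate 3 or miR-21-/- replicate 3). Acsl3 passed it in every alternative. Median of ratios gave 5 genes that rose. The median of the members, -0.22, was -0.16 with a pseudocount of 10, -0.14 after quantile normalization and -0.11 after median of ratios. The mitochondrial median was -0.17, -0.13 and -0.11, and the peroxisomal one -0.21, -0.20 and -0.26 (-0.45 to -0.27 with 1 sample left out, -0.27 without WT replicate 3). The median of the regulators turned to 0.023 after median of ratios, as did Crat (0.0037), Ppard (0.023) and Etfa (0.060, and 0.029 after quantile normalization). The cause was not tested.

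Replicate numbers are those of the sample descriptions. The titles number the miR-21-/- samples differently, so the labels disagree on any pairing. By the descriptions, same-numbered samples did not all deviate together (correlations 0.083, -0.11, -0.14 and 0.22). These correlations were not tested and neither show nor exclude a pairing. With the replicate block, 4 members passed the strict rule, and Slc25a20 (adjusted p = 0.0818) and Echs1 (0.0631) lost their calls. Acot1 and Ehhadh rest on 14 to 191 and 48 to 80 reads per sample.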

Other observations

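Per kilobase of exon, the 31 tested members spanned from 27.4 CPM per kb for Acsl5 to 0.917 CPM per kb for Ehhadh in WT TAMs. The lengths are merged exons of all annotated transcripts, such as 4.86 kb for Acsl5 and 8.73 kb for Hadha. The order therefore depends on the annotation. After Acsl5 came Etfb at 25.2, Acadl at 24.1 and Etfa at 21.1 CPM per kb. In miR-21-/- TAMs the lowest was Acot1 at 0.254 CPM per kb, and Acsl5 remained the highest at 28.3 CPM per kb, followed by Acadl at 26.2 CPM per kb. Etfb, the second in WT TAMs, was at 16.4 CPM per kb, below Etfa at 20.4 and Acsl4 at 18.9 CPM per kb.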
